A study of Mus musculus with 12 samples.

Results

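The 10 genes described here encode transcription factors that set and keep thymocyte identity: Gata3, Tox, Tox2, Bcl11b, Runx1, Runx3, Myb, Zbtb7b, Ets1 and Satb1. They were chosen by name, and each matched 1 of the 38339 gene rows of the deposited table. RNA was measured in bone marrow of recipient mice carrying a transplanted primary mouse T-ALL (T-cell acute lymphoblastic leukemia, which arises from developing T cells). The mice are labelled C57BL/6 x 129Sv/Jae F1. There were 6 such leukemias: leukemia 1 (73A-46B), leukemia 2 (73M-19A), leukemia 3 (78A-143B), leukemia 4 (2M-127B), leukemia 5 (20M-116B) and leukemia 6 (JW-81-59B). For each leukemia, 1 moribund recipient had been given dexamethasone (DEX, a synthetic glucocorticoid) and 1 had been given vehicle (VEH), and marrow was taken 4 hours later, which gave 6 DEX and 6 VEH libraries in 6 pairs. The leukemia is the replicate, and each arm of a leukemia is 1 mouse. Drug dose, recipient age and the genetic lesions of the leukemias are not stated in the labels. Marrow was lysed for red cells and was not sorted, so other marrow cells contribute RNA, and fewer cells of a type and less RNA per cell cannot be told apart in such bulk samples.

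T-cell progenitors in the thymus lose their other lineage options in steps that these factors share. Gata3, Runx1, Myb and Ets1 act from the earliest T-cell stages, Bcl11b closes commitment, Tox and Satb1 act when selected thymocytes mature, and Zbtb7b and Runx3 set the choice between the CD4 helper and the CD8 cytotoxic lineage. Runx1, Myb, Ets1, Gata3 and Bcl11b also act in T-ALL, as part of the transcription circuit of the leukemic cell or as targets of mutation. Glucocorticoids are used against lymphoid leukemia because they kill immature lymphocytes through the glucocorticoid receptor.

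After 4 hours of dexamethasone, 4 of the 10 factors fell and 0 rose. The 4 were Gata3, Tox, Runx1 and Myb. Levels are FPKM (fragments scaled to gene length and to library size), and each difference is that of log2(FPKM + 1), DEX minus VEH, with leukemia as a block in limma and p-values adjusted by Benjamini-Hochberg over all 12358 genes tested (threshold 0.05). By the same rule 9.28% of the tested genes were lower and 4.27% higher. At an unadjusted p under 0.05, 8 members were lower and 0 higher, beside 20.5% and 9.69% of the tested genes. All 10 members were tested, with a median difference of -0.39, beside a median of -0.05 over the tested genes.

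**Figure D1:**
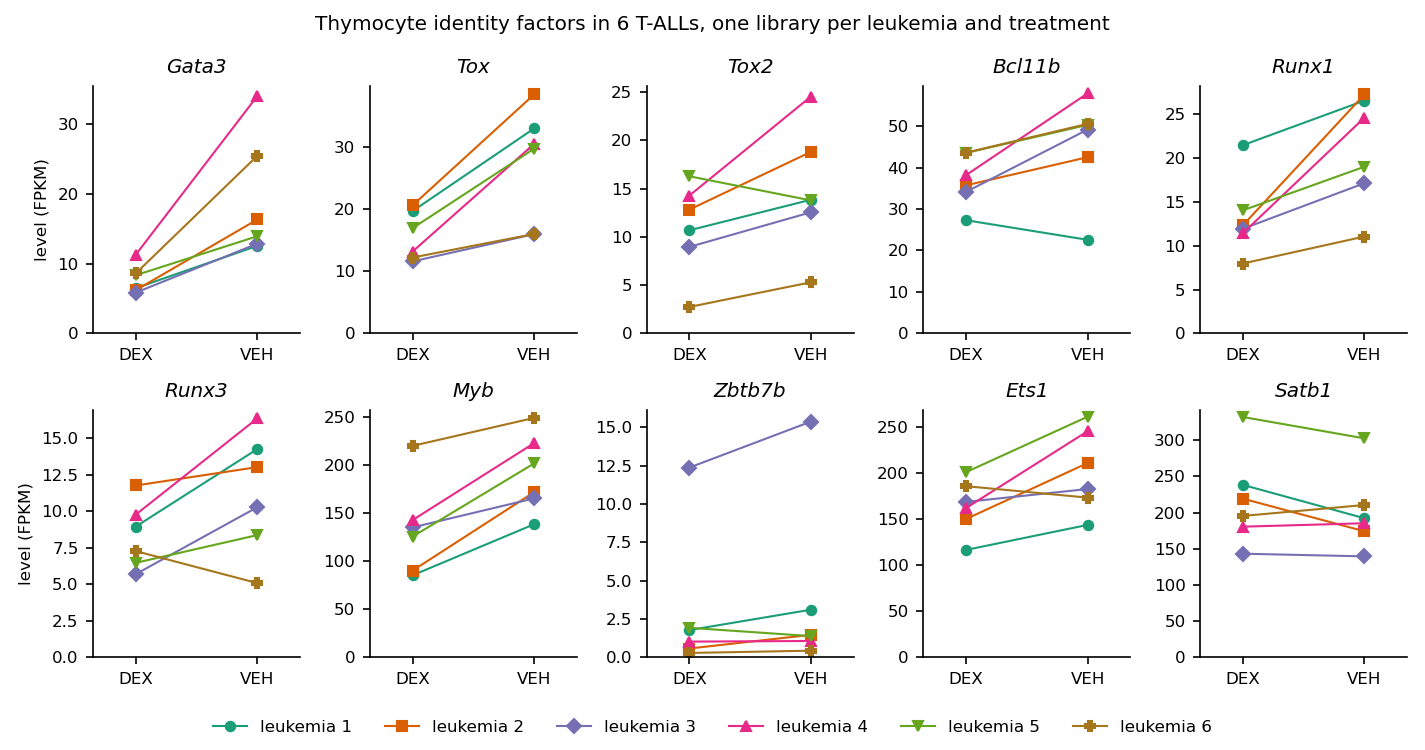
Level in FPKM (linear axes from 0) of each of the 10 factors in every library, with DEX at the left and VEH at the right of each panel, and a line joining the pair of a leukemia. The 6 lines of Gata3, Tox, Runx1 and Myb all run higher on the VEH side, Satb1 has lines of both kinds, and leukemia 3 lies apart from the others in Zbtb7b.

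Gata3, a zinc finger factor required for the first steps of T-cell development and later for CD4 cells, showed the largest difference of the 10 (ENSMUSG00000015619, GRCm38 chromosome 2, 9857078 to 9890034). In DEX libraries it had 6.49, 6.20, 5.85, 11.3, 8.34 and 8.61 FPKM in leukemias 1 to 6, against 12.6, 16.3, 12.9, 34.1, 13.9 and 25.5 FPKM in VEH libraries. Every DEX library lay below every VEH library, a separation that 1.34% of the tested genes showed in this direction, and the spread between leukemias was wider in VEH. The mean was 7.80 ± 2.06 FPKM in DEX and 19.2 ± 8.72 FPKM in VEH (SD, n = 6 each), a difference of -1.13 ± 0.12 (SE; limma adjusted p = 0.00151), lower in 6 of 6 leukemias. The DEX level was 33.2% of the VEH level in leukemia 4 and 59.8% in leukemia 5, the ends of the range. Only 19 of the 12358 tested genes had a more negative difference.

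Tox, an HMG-box factor needed for the CD4 lineage at positive selection, had 19.7, 20.6, 11.6, 13.2, 16.9 and 12.2 FPKM in the DEX libraries of leukemias 1 to 6 (ENSMUSG00000041272, chromosome 4). The VEH libraries had 32.9, 38.4, 15.95, 30.5, 29.7 and 15.98 FPKM. Leukemias 3 and 6 were the 2 lowest in both groups, and the DEX and VEH ranges overlapped. The difference was -0.72 ± 0.11 (SE; limma adjusted p = 0.00473), with a DEX level between 43.2% and 76.3% of that in VEH.

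Runx1, the RUNX factor that acts with CBFB in blood stem cells and early T cells, had 21.5, 12.3, 11.9, 11.4, 14.0 and 7.97 FPKM in DEX and 26.6, 27.3, 17.1, 24.6, 19.01 and 11.1 FPKM in VEH (ENSMUSG00000022952, chromosome 16, 92601466 to 92826149). Leukemias 2 and 4 had the widest gaps, at 45.2% of the VEH level in leukemia 2, and leukemia 1 had the narrowest, at 80.8%. The difference was -0.63 ± 0.12 (SE; limma adjusted p = 0.0128), lower in 6 of 6 leukemias.

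Myb, the leukemia-linked factor that sustains proliferating progenitors, was among the most abundant of the 10 (ENSMUSG00000019982, chromosome 10, 21124935 to 21160984). It had 85.3, 90.1, 135, 142.6, 125 and 219.7 FPKM in DEX and 138, 172, 165, 223, 201.6 and 248.8 FPKM in VEH. Leukemia 6 was the highest in both groups and had the narrowest gap, at 88.3% of the VEH level, and leukemia 2 the widest, at 52.5%. The difference was -0.57 ± 0.10 (SE; limma adjusted p = 0.00844), lower in 6 of 6 leukemias. Gata3, Tox, Runx1 and Myb were the 4 members lower in all 6 leukemias, and 13.7% of the tested genes were.

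The start regions of Gata3, Myb and Runx1 are shown because these genes fell. They run from 250 bases before to 50 bases after the start site (RefSeq, GRCm38.p6, all on the minus strand, printed 5′ to 3′ along the gene). Capitals mark matches to the core ETS site CCGGAA or the core RUNX site TGTGGT on either strand.
Gata3, chr2:9878551-9878850: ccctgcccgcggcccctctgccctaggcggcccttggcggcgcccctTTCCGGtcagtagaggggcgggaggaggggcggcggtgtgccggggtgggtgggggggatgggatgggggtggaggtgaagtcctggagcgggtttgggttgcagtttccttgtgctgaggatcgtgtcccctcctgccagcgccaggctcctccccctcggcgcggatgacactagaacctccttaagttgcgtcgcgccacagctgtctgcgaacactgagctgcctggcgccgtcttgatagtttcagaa
Myb, chr10:21160935-21161234: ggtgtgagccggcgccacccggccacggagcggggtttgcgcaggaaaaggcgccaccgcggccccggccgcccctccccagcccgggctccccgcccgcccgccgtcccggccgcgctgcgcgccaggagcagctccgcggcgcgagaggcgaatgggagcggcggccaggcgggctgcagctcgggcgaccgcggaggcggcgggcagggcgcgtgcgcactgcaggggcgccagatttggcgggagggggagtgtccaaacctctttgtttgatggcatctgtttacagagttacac
Runx1 distal start, chr16:92826025-92826324: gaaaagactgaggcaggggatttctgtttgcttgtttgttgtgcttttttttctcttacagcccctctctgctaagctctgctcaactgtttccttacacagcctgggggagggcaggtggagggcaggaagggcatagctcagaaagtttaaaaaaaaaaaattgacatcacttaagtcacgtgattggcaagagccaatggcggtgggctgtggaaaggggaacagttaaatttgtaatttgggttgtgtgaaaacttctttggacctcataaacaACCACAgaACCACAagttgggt
Runx1 proximal start, chr16:92697280-92697579: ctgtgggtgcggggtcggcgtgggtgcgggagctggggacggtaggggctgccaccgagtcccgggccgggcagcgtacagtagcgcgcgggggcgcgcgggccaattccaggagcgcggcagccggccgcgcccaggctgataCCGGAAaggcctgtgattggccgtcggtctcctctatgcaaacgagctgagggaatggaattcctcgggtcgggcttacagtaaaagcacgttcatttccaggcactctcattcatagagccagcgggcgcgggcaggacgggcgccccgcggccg
The Gata3 region held an ETS match 203 bases before the start and the proximal Runx1 region one 106 bases before it, while the distal Runx1 region held a pair of RUNX matches 28 and 36 bases after it. The Myb region held neither match.

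The RefSeq table held 19 such regions for 8 of the 10 members, some of them overlapping, and no entry for Tox or Ets1. The single-receptor core AGAACA of the glucocorticoid receptor, on either strand, was in 0 of the 19 and in 18.97% of all 32817 regions of the same length. The full palindromic receptor site (that core and its reverse complement with 3 bases between them) was in 0 of the 19 and in 0.00914% of all, and the inverted repeat of negative receptor sites (CTCC and GGAGA with 0 to 2 bases between them) in 0 of the 19 and 1.72% of all. The RUNX site was in 3 of 19 and 16.8% of all, the ETS site in 3 of 19 and 14.9%, the GATA site AGATAA in 0 of 19 and 11.2%, and the MYB site AACNG in 14 of 19 and 80.3%, each counted on both strands and with overlaps between motifs allowed. These are letter matches in short windows and say nothing of binding.

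The other 6 factors did not pass the threshold in the main fit. Of 19 alternative settings, Tox2 passed in 4, Runx3 in 5 and Ets1 in 4, and Bcl11b, Zbtb7b and Satb1 in none. Zbtb7b was tested in 18 of them, since a stricter filter of 3 FPKM removed it. Rescaled to TPM (the same sum in each library), the limma adjusted p was 0.0239 for Tox2, 0.0361 for Runx3 and 0.0255 for Ets1. It was 0.0459 for Tox2 with a stricter filter of 3 FPKM, and 0.0200 for Ets1 with quantile normalization. Tox2, the close relative of Tox, had 10.7, 12.8, 8.96, 14.3, 16.3 and 2.74 FPKM in DEX and 13.9, 18.8, 12.6, 24.5, 13.8 and 5.30 FPKM in VEH. Leukemia 5 alone was higher in DEX, and leukemia 6 was the lowest in both groups. Its difference was -0.43 ± 0.13 (SE; limma adjusted p = 0.0534; 95% confidence interval -0.71 to -0.15), and leaving out 1 leukemia at a time gave an adjusted p of 0.0939 to 0.142, except without leukemia 5, the one that went the other way, where it was -0.56 (adjusted p = 0.0212).

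Runx3, which silences Cd4 and drives the CD8 program, had 8.95, 11.8, 5.70, 9.77, 6.47 and 7.27 FPKM in DEX and 14.3, 13.0, 10.3, 16.4, 8.37 and 5.08 FPKM in VEH. Leukemia 6 was higher in DEX, at 143.1% of its VEH level, and the other 5 were lower. The difference was -0.35 ± 0.15 (SE; limma adjusted p = 0.164; 95% confidence interval -0.69 to -0.00206), and leaving out 1 leukemia at a time gave an adjusted p of 0.198 to 0.331, except without leukemia 6, the one that was higher, where it was -0.50 (adjusted p = 0.0224).

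Ets1, an ETS factor abundant in T cells, averaged 164 ± 29.4 FPKM in DEX and 203 ± 44.9 FPKM in VEH (SD, n = 6 each). It was lower in 5 of 6 leukemias, with leukemia 6 at 186 FPKM in DEX and 174 FPKM in VEH as the exception. The difference was -0.30 ± 0.09 (SE; limma adjusted p = 0.0641), and the adjusted p was 0.0697 to 0.165 when any other leukemia was left out, but 0.0227 (-0.37) without leukemia 6, the exception itself.

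Bcl11b, the commitment factor, averaged 37.1 ± 6.18 FPKM in DEX and 45.5 ± 12.3 FPKM in VEH (SD, n = 6 each). Leukemia 1, the lowest in both groups, was the exception, with 27.3 FPKM in DEX and 22.6 FPKM in VEH. The difference was -0.25 ± 0.11 (SE; limma adjusted p = 0.150; 95% confidence interval -0.49 to -0.01). It missed the threshold with any 1 leukemia left out, and came nearest without leukemia 1, the exception (-0.35, adjusted p = 0.0506).

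Satb1, a chromatin organizer highly expressed in thymocytes, had 238, 219, 143.3, 181, 332 and 195 FPKM in DEX and 192, 174, 139.6, 185, 303 and 211 FPKM in VEH. It was higher in DEX in 4 leukemias and lower in leukemias 4 and 6. The difference was 0.11 ± 0.07 (SE; limma adjusted p = 0.345; 95% confidence interval -0.06 to 0.28), and its sign turned to -0.027 when values were rescaled to TPM (the same sum in each library) and to -0.048 with quantile normalization.

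Zbtb7b, which encodes ThPOK, the factor that fixes the CD4 choice, had 1.78, 0.58, 12.4, 1.03, 1.93 and 0.29 FPKM in DEX and 3.11, 1.47, 15.4, 1.07, 1.39 and 0.44 FPKM in VEH. It was the lowest of the 10, at 1 FPKM or more in 4 DEX and 5 VEH libraries, and high in leukemia 3 alone. The difference was -0.23 ± 0.14 (SE; limma adjusted p = 0.283; 95% confidence interval -0.54 to 0.07), and at such low levels log2(FPKM + 1) understates a fold change.

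**Figure D2:**
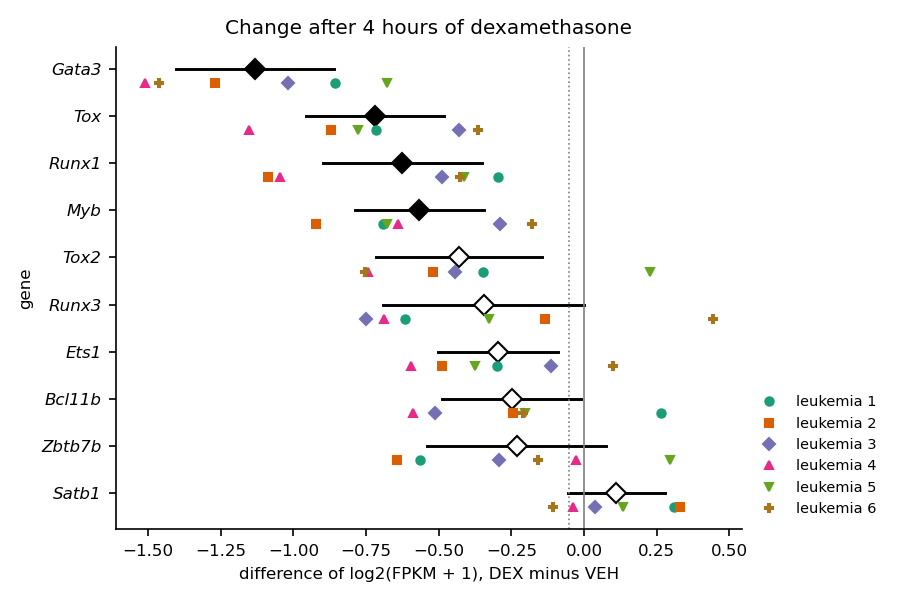
Difference of log2(FPKM + 1), DEX minus VEH, for each factor: diamonds are the estimates (filled where the limma adjusted p is under 0.05), bars the 95% confidence intervals, small symbols the 6 leukemias, the solid line 0 and the dotted line the median of all tested genes. Gata3 at -1.13, Tox at -0.72, Runx1 at -0.63 and Myb at -0.57 passed, and Satb1 at 0.11 was the only estimate above 0.

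A pass in one factor and not in its relative does not show that they changed unequally, so the pairs of paralogs were compared within leukemias. The change of Tox minus that of Tox2 averaged -0.29 ± 0.47 (SD, n = 6) and ranged from -1.002 to 0.39 (exact two-sided sign-flip permutation p = 0.25). The change of Runx1 minus that of Runx3 averaged -0.28 ± 0.55 (SD, n = 6) and ranged from -0.95 to 0.32 (exact p = 0.28125). Both exact tests had an adjusted p of 0.28125 over the 2 pairs, and 6 pairs allow no p below 0.03125. An unequal change was thus neither shown nor excluded.

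By leukemia, the number of members with a lower value in DEX was 8, 9, 9, 10, 7 and 8 of 10 in leukemias 1 to 6. The share of all tested genes that were lower in each leukemia was not counted, so these counts lack a background of their own. The median change over the members was -0.46, -0.58, -0.44, -0.66, -0.35 and -0.19, beside a median over all tested genes of -0.03, -0.12, -0.02, -0.01, -0.03 and -0.09. Leukemia 4 had the most negative median and the only set with every member lower, and leukemia 6 the median nearest to 0.

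The factors are given here in order of mean level, in FPKM, which scales for gene length. Neighbours in this order were tested in the same libraries that set it, so these tests are no independent support for it. No neighbouring pair passed an adjusted p of 0.05. In DEX libraries Satb1 (218 FPKM), Ets1 (164 FPKM) and Myb (133 FPKM) led, followed by Bcl11b (37.1 FPKM) and then by Tox, Runx1, Tox2, Runx3 and Gata3 (15.7 to 7.80 FPKM), with Zbtb7b at 2.997 FPKM. In VEH libraries Ets1 (203 FPKM), Satb1 (201 FPKM) and Myb (191.4 FPKM) were followed by Bcl11b (45.5 FPKM), then Tox, Runx1, Gata3, Tox2 and Runx3 (27.2 to 11.2 FPKM), and Zbtb7b at 3.81 FPKM. Only the step from Myb to Bcl11b in both groups, and that from Bcl11b to Tox in DEX, had the same order in 6 of 6 leukemias (exact sign-flip permutation p = 0.03125, adjusted p = 0.141 over 9 neighbouring pairs). Among the other neighbours, Ets1 and Satb1 in VEH were as close as 3 of 6 leukemias in either order (exact p = 0.906), and Gata3 lay above Runx3 in 4 of 6 leukemias in DEX, though its mean was the lower.

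All 10 factors differed between leukemias when the leukemia terms of that fit were tested with an F test (limma adjusted p from 6.52e-05 for Zbtb7b to 0.0445 for Runx3), as did 51.1% of the tested genes. Zbtb7b had the widest spread, with a mean of both libraries of 13.9 FPKM in leukemia 3, 2.45 FPKM in leukemia 1 and 0.365 FPKM in leukemia 6. Tox2 followed, with 19.4 FPKM in leukemia 4 and 4.02 FPKM in leukemia 6, a ratio of 4.83. In the other 8 the highest leukemia stood at 1.77 to 2.52 times the lowest. Leukemia 6 was the lowest for Tox2, Runx1, Runx3 and Zbtb7b and the highest for Myb.

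Zbtb7b and Runx3 are set here beside the coreceptor genes they regulate, which were picked after their values were seen. Leukemia 3, the highest for Zbtb7b, also had the highest Cd4, at 156 FPKM in DEX and 182.6 FPKM in VEH. Leukemia 1, the second highest for Zbtb7b, had 6.85 FPKM of Cd4 in DEX and 8.04 FPKM in VEH. In leukemia 5, Zbtb7b had 1.93 FPKM in DEX and 1.39 FPKM in VEH, and Cd4 had 84.99 and 67.34 FPKM. Zbtb7b and Cd4 thus did not rank the leukemias alike. Leukemia 6, the lowest for Zbtb7b, had 2.07 FPKM of Cd4 in DEX and 3.48 FPKM in VEH, and 0.30 and 0.50 FPKM of Cd8a, while Cd8b1, the other CD8 chain, had 40.9 FPKM in DEX and 39.7 FPKM in VEH. Cd8a was highest in leukemia 5, at 220.5 FPKM in DEX and 195 FPKM in VEH, where Runx3 had 6.47 and 8.37 FPKM.

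**Figure D3:**
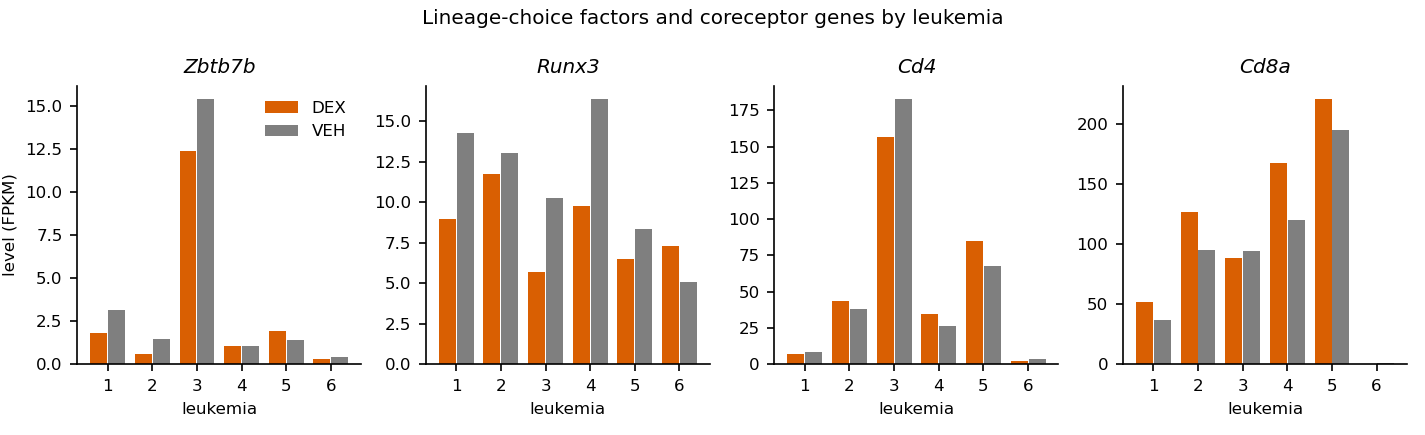
Level in FPKM of Zbtb7b, Runx3, Cd4 and Cd8a in each leukemia, with the DEX library left of the VEH library. Zbtb7b (12.4 FPKM in DEX, 15.4 FPKM in VEH) and Cd4 (156 and 182.6 FPKM) peak in leukemia 3, while Runx3 spans 5.08 to 16.4 FPKM with no such peak.

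Over the 12 libraries, the members most alike were Tox and Runx1, with a Pearson r of 0.87 for log2(FPKM + 1), then Bcl11b and Ets1 (0.81) and Gata3 and Myb (0.76). The protein-coding gene most like each member was Itpkc for Gata3 (0.92), Ino80 for Tox (0.94), Arid2 for Tox2 (0.97), Bicdl1 for Bcl11b (0.92) and Foxk1 for Runx1 (0.94). It was Myl4 for Runx3 (0.92), Zfp710 for Myb (0.94), Rhof for Zbtb7b (0.95), Cd28 for Ets1 (0.91) and Txndc16 for Satb1 (0.90). These are descriptions over libraries that share leukemias and treatments. Each gene named beside a member is the highest among tested protein-coding genes that are not members and have an ordinary symbol. Symbols with a Gm number, Rik or an accession were left out.

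Several members share exonic sequence with an antisense gene model, and the sources used here do not say whether counting used strand. Gm26577 overlaps Myb over 559 exonic bases and had 5.82 FPKM in DEX and 8.50 FPKM in VEH. Gm13256 overlaps Gata3 over 155 bases, at 0.125 FPKM in DEX and 0.638 FPKM in VEH, and the antisense models over Tox and Runx1 had means up to 1.05 FPKM. On the same strand as Gata3, 9230102O04Rik shares 77 exonic bases and had 0.765 FPKM in DEX and 1.353 FPKM in VEH.

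Relatives and partners of the 10 factors were read from the same fit. Of 26 listed genes, 19 were tested: 3 fell, 0 rose and 16 did not pass, with a median difference of -0.13, where 9.28% of all tested genes fell and 4.27% rose. At an unadjusted p under 0.05 in limma, 6 of the 19 were lower and 0 higher, beside 20.5% and 9.69% of all tested genes. Only 1 fell with the granulocyte and monocyte marker term, and 0 in leukemias 2, 5 and 6 alone. Among all tested genes, 391 of 12358 and 275 of 12572 fell in these settings, against 1147 of 12358 in the main fit. Ets2, an ETS factor, fell to 37.5 ± 20.9 FPKM in DEX, against 64.3 ± 37.8 FPKM in VEH (SD, n = 6; -0.71, adjusted p = 0.0113), Elf1, another ETS factor, fell by 0.44 and the zinc finger gene Zbtb1 by 0.46, each in 6 of 6 leukemias. Etv6 stood at -0.37 (adjusted p = 0.0775), and Cbfb, the partner of RUNX factors and picked after its values were seen, at -0.25 (adjusted p = 0.0898).

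Among 23 tested regulators of the T lineage outside the 10, 7 fell, 3 rose and 13 did not pass (median -0.19). Over all tested genes, 9.28% fell and 4.27% rose. At an unadjusted p under 0.05 in limma, 9 of the 23 were lower and 4 higher, beside 20.5% and 9.69% of all tested genes. The number that rose was 0 without leukemia 1, 4 or 5, 1 without leukemia 2, and 0 with TPM. Among all tested genes, 266, 282, 234, 361 and 268 rose in these settings, against 528 in the main fit. The number that fell was 4 with the granulocyte and monocyte marker term and 5 to 10 with 1 leukemia left out. Beside these, 391 and 420 to 1035 of all tested genes fell, against 1147 in the main fit. The 4 with the smallest p were Id3 (-1.63), an inhibitor of E proteins, the Ikaros family gene Ikzf2 (-1.26), the TCF1 gene Tcf7 (-0.68) and Id2 (-0.48), a second inhibitor of E proteins that had 25.6 ± 9.84 FPKM in DEX and 36.9 ± 15.6 FPKM in VEH (SD, n = 6; adjusted p = 0.0103).

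Of 27 tested thymocyte genes that such factors activate, 8 fell, 1 rose and 18 did not pass (median -0.23). Over all tested genes, 9.28% fell and 4.27% rose. At an unadjusted p under 0.05 in limma, 13 of the 27 were lower and 3 higher, beside 20.5% and 9.69% of all tested genes. The number that fell was 3 without leukemia 4 or 5 and 5 without leukemia 3. It was 4 with the granulocyte and monocyte marker term and 13 with TPM. The number lower over all tested genes also moved with the setting, from 1147 of 12358 in the main fit. That number was 584 without leukemia 4, 420 without leukemia 5, 994 without leukemia 3, 391 with the marker term and 1844 with TPM. The costimulatory receptor gene Cd27 fell to 92.2 ± 18.4 FPKM in DEX, against 135 ± 20.1 FPKM in VEH (SD, n = 6; -0.56, adjusted p = 0.0035), Themis, a regulator of T-cell receptor signalling, fell by 0.46, the receptor chain gene Cd3g by 0.33 and Dntt, the polymerase that adds bases at receptor gene joins, by 0.70. Cd8b1, picked after its values were seen, was the 1 that rose, by 0.26 (limma adjusted p = 0.0492). It missed the threshold without any 1 of leukemias 1 to 5, and with TPM, quantile normalization or the granulocyte and monocyte marker term. The call was also lost with 0.1 FPKM added in place of 1, and without a filter, a variance trend or the replicate block. So it was in leukemias 1, 3 and 4 alone and in leukemias 2, 5 and 6 alone.

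Of 15 natural killer and innate genes that Bcl11b holds down in T cells, 7 were tested: Id2 fell, Nfil3 rose by 0.55 (adjusted p = 0.0375) and 5 did not pass, among them Nkg7 (-0.48, adjusted p = 0.0909) and Prf1 (-0.22, adjusted p = 0.252), with a median of -0.16. The call of Nfil3 was lost without any 1 of leukemias 1 to 5, with TPM and without a filter. That of Id2 was lost with the granulocyte and monocyte marker term and in leukemias 1, 3 and 4 alone. Both calls were lost in leukemias 2, 5 and 6 alone and without the replicate block. The 8 untested ones stayed at or under 2.99 FPKM. In this list and in the next, 1 gene fell and 1 rose, beside 9.28% and 4.27% of all tested genes. Of 15 progenitor genes shut off at commitment, 5 were tested: Lyl1 fell by 0.71 (adjusted p = 0.0126), Flt3 rose by 0.46 (adjusted p = 0.0198), and Kit (-0.41, adjusted p = 0.0609), Lmo2 (-0.41, adjusted p = 0.274) and Spi1 did not pass, with a median of -0.41. Flt3 was near the filter of 1 FPKM, at a mean of 1.86 FPKM in DEX and 1.10 FPKM in VEH, and reached 3 FPKM in no library. The call of Flt3 was lost without leukemia 1, 4 or 5 and in leukemias 1, 3 and 4 alone. Those of Flt3 and Lyl1 were lost with the granulocyte and monocyte marker term and in leukemias 2, 5 and 6 alone. Both were also lost without a filter and without the replicate block. Among the tested genes, Id2 and Nfil3 are in 2 of these lists.

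**Figure D4:**
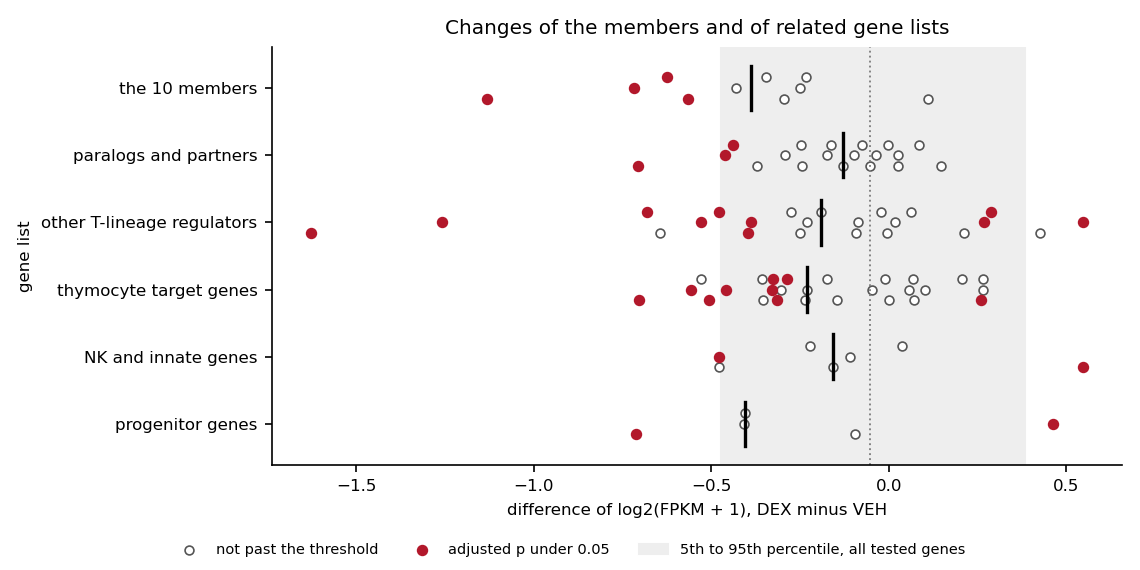
Difference of log2(FPKM + 1), DEX minus VEH, of the 10 members and of each tested gene in 5 related lists, with filled points past an adjusted p of 0.05, a bar at each list's median, and in grey the 5th to 95th percentile of all tested genes (-0.47 to 0.38). The 4 filled points of the members lie left of the grey band, and the medians run from -0.41 for the progenitor genes to -0.13 for paralogs and partners.

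The 12 T-lineage markers, used to check the labelled cell type, all passed the filter and summed to 1455 to 2372 FPKM in DEX and 1615 to 2629 FPKM in VEH. Of the 12, 4 fell and 1 rose, beside 9.28% and 4.27% of all tested genes. The mean log2 change of the 12 was below 0 in all 6 leukemias, between -0.25 and -0.06. Most of the 12 are also in the lists above, so calls such as those of Cd3g, Tcf7 and Cd8b1 are counted again here. The part of the T-lineage markers in the results of the members was not tested. Cd8a was near 0 in leukemia 6, and Cd8b1 was not. Estimated depth was 11700000 to 38100000 fragments in 11 libraries, and the VEH library of leukemia 2 gave no sharp estimate. The 14 granulocyte and monocyte markers summed to 1561 to 5640 FPKM in DEX and 2403 to 9495 FPKM in VEH, with 2 lower, 0 higher and a mean log2 change of -0.77, -1.36, 0.46, 0.06, -0.43 and -1.23 in leukemias 1 to 6. Erythroid markers summed to 14.9 to 153 FPKM in DEX and 9.35 to 1221 FPKM in VEH, B-lineage markers to 1.97 to 10.2 and 2.04 to 55.7 FPKM, and both had their most negative mean log2 change in leukemia 2, at -2.69 and -1.49. The markers of natural killer cells summed to 104 to 384 FPKM in DEX and 125 to 628 FPKM in VEH, of which Gzma alone gave 102 to 383 and 124 to 627 FPKM, while Ncr1 did not exceed 0.04 and 0.23 FPKM. Megakaryocyte markers reached 10.98 and 12.01 FPKM and stromal and endothelial ones 2.93 and 2.57 FPKM in sum, and no marker on any list was at 0 in every library.

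The mean of the granulocyte and monocyte markers was not lower in DEX in leukemias 3 and 4, where Gata3 changed by -1.02 and -1.51, Tox by -0.43 and -1.15, Runx1 by -0.49 and -1.05 and Myb by -0.29 and -0.64. Leukemias 3 and 4 were picked by these marker values, and the mean log2 change of the T-lineage markers was -0.25 and -0.06 there. What lay behind the changes in these leukemias was not tested. With the mean level of the granulocyte and monocyte markers as a term in the fit, Gata3 (-1.09, adjusted p = 0.0154) and Tox (-0.74, adjusted p = 0.0287) passed. Runx1 (-0.61, adjusted p = 0.0719) and Myb (-0.51, adjusted p = 0.0613) did not. Without the term they stood at -0.63 and -0.57. The added term leaves fewer residual degrees of freedom. With it, 391 of all tested genes were lower and 230 higher, against 1147 and 528 in the main fit. What lay behind the lost calls was not tested. Runx3 stood at -0.61 (adjusted p = 0.04999) with the term. The part of the other marker lists in these results was not tested.

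The library names in the descriptions carry a number after an S, except for the DEX libraries of leukemias 2, 5 and 6, and the labels do not say what it marks. In leukemias 1, 3 and 4 alone, and in leukemias 2, 5 and 6 alone, the difference was -1.13 and -1.14 for Gata3, -0.77 and -0.67 for Tox, -0.61 and -0.64 for Runx1, and -0.54 and -0.59 for Myb. Runx1 missed the threshold in both sets (adjusted p = 0.0624 and 0.0784) and Myb in the second (0.0709). Runx3 stood at -0.69 (adjusted p = 0.0124) and -0.01 (adjusted p = 0.988), and that contrast between the sets was not tested.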

How the data were processed

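Total RNA of 12 marrow samples was sequenced with a stranded kit and paired reads, per the labels. The authors deposited FPKM values on a linear scale for 38339 genes. The submitters' processing notes name the build mm10 and Bowtie2 (version 2), RSEM and edgeR, with no role or order. Annotation version and filters are not given in the sources used here. The table holds no counts, so no count test was used.

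Genes at 1 FPKM or more in at least 6 of 12 libraries were tested (12358). The log2(FPKM + 1) values were fitted with leukemia as a block and treatment in limma 3.58.1 (R 4.3.3; eBayes with trend, two-sided, 5 residual and 3.995 prior degrees of freedom). The method was tested on simulated data. Pairs come from the leukemia code shared by both titles of a pair. As a check, libraries of a pair correlated at 0.55 to 0.82 across genes after removal of group means, and others at up to 0.21. Nothing says that the 2 mice of a pair were matched beyond the leukemia.

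Gene coordinates are from GENCODE M21 (GRCm38) and start regions from RefSeq (GRCm38.p6). Depth was read off the FPKM step that 1 fragment makes in rarely detected genes of 400 to 700 bp. The members, lists and tests were chosen with earlier results of these data known. Named genes were the 10 members and the 4 smallest p-values in each list. To these was added the protein-coding gene with an ordinary symbol most like each member over the 12 libraries. Alternatives were 18 other settings, and 1 more (without leukemias 2 and 6) was added after seeing the data.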

Additional observations from a re-analysis of the deposited data

Results flagged for a closer look

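Among 30 sets of 6 values (each member in DEX, in VEH and as a log2 change), 2 had a value far from the other 5, and chance alone gives such a gap in about 1 of 20 sets. Both were Zbtb7b in leukemia 3, at 12.37 FPKM in DEX, where the next highest leukemia had 1.93 FPKM, and at 15.37 FPKM in VEH, where the next had 3.11 FPKM. The pair comes from 2 mice carrying the same leukemia.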

How the results depend on the processing

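Gata3, Tox, Runx1 and Myb were lower in each of 19 alternatives, and Gata3 and Tox passed the threshold in 18 of them, Myb in 16 and Runx1 in 14. Of 12358 tested genes 528 were higher and 1147 lower. No filter gave 181 and 370, TPM 268 and 1844, the granulocyte and monocyte term 230 and 391, leukemias 2, 5 and 6 alone 270 and 275, and leaving out 1 leukemia 234 to 537 higher and 420 to 1035 lower. Median-of-ratios scaling gave 718 lower and 683 higher genes, and leukemias 1, 3 and 4 alone 525 lower. TPM moved the median of all genes to -0.16, and the share of called genes that were higher to 12.7%, against 31.5% as deposited and 48.8% with median-of-ratios scaling.

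The number of members lower was 7 with TPM, 2 in leukemias 2, 5 and 6 alone, and 4 to 6 with 1 leukemia left out. Without leukemias 2 and 6 it was 6, where 1140 of 12472 tested genes were lower. Without the replicate block, which ignores the pairing, 0 members, 46 genes lower and 35 higher passed by limma (Gata3 adjusted p = 0.0577). Without a filter Runx1 had an adjusted p of 0.063, with more genes tested. The number of members that differed between leukemias was 6 with no filter, 6 in leukemias 2, 5 and 6 alone, and 7 to 10 with 1 leukemia left out.

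Satb1 turned to -0.027 with TPM and -0.048 with quantile normalization. The Runx1 minus Runx3 change turned to 0.077 in leukemias 1, 3 and 4 and to 0.036 without leukemias 2 and 6, and lay between -0.40 and -0.15 with 1 leukemia left out, as did the Tox minus Tox2 change between -0.42 and -0.15. The cause of these shifts was not tested. With 5 pairs the exact test allows no p below 0.0625. FPKM without counts gives no counting interval.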

Other observations

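Runx2 and Hhex, picked after their values were seen, were high in leukemia 6 alone. Runx2, the third RUNX factor, had 40.8 FPKM there in DEX and 24.2 FPKM in VEH, and at most 1.89 FPKM in DEX and 2.99 FPKM in VEH in the other 5 leukemias. Hhex, a homeobox gene of early progenitors, had 102 FPKM in DEX and 65.9 FPKM in VEH in leukemia 6, and at most 0.98 and 1.38 FPKM elsewhere. It was at 1 FPKM or more in 4 of 12 libraries and so was not tested. In the same leukemia Runx1 (7.97 FPKM in DEX, 11.1 FPKM in VEH) and Tox2 (2.74 and 5.30 FPKM) were at their lowest.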
